A study of Mus musculus with 8 samples.

Results

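Troponin is the calcium switch of the striated muscle thin filament. The troponin genes described here were the 8 whose symbols are Tnnc1, Tnnc2, Tnni1, Tnni2, Tnni3, Tnnt1, Tnnt2 and Tnnt3. Their rows were picked by symbol, and the set was chosen with earlier results of these data known. All 8 of the 8 had a row in every library, all 8 passed the filter on low values, and they stood among 16382 named genes. The libraries were poly(A)-selected RNA from the soleus, a postural hindlimb muscle, of female mice 7 months old. Each of 4 WT and 4 Megf10 KO libraries came from a separate mouse. Megf10 KO mice carried the constitutive allele Megf10tm1b(KOMP)Jr in the homozygous state (Megf10 -/-), which removes the fourth exon in every cell, so that loss in the muscle fiber and loss in other cells cannot be told apart. Megf10 encodes a transmembrane receptor of muscle satellite cells and glia. The comparison asks how the soleus of mice without this receptor differs from that of WT mice.

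The troponin complex joins a calcium-binding subunit (troponin C), an inhibitory subunit (troponin I) and a subunit that anchors the complex to tropomyosin (troponin T). Calcium binding to troponin C relieves the inhibition by troponin I, tropomyosin moves, and myosin can reach actin. Each subunit comes from separate genes in slow and in fast fibers: Tnnc1, Tnni1 and Tnnt1 serve slow fibers, and Tnnc2, Tnni2 and Tnnt3 serve fast fibers. Tnnc1 is also the troponin C gene of the heart, Tnni3 is the adult cardiac troponin I gene, and Tnnt2 is the cardiac troponin T gene, which embryonic and regenerating skeletal muscle also uses. The mouse soleus is a mixture of type I (slow) and type IIa (fast) fibers, so both sets are abundant in it.

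In the Megf10 KO soleus, RNA of all 3 fast troponin genes was lower than in WT. Tnnt3 was 1.60-fold lower, Tnni2 1.54-fold lower and Tnnc2 1.37-fold lower (ratios of group means, n = 4 per genotype). Of the slow genes, Tnni1 was 1.29-fold higher and passed the test, Tnnc1 was 1.21-fold higher and missed it, and Tnnt1 did not pass. Neither cardiac gene passed. The test was limma on log2(normalized count + 1) over all genes, with Benjamini-Hochberg adjustment and a threshold of 0.05. By this rule 1 of 8 troponin genes was higher in KO, where 5.16% of all tested genes were, 3 of 8 were lower, where 3.79% of all genes were, and 4 of 8 were called in neither direction. In total 8.95% of all genes were called. At an unadjusted p under 0.05, 2 of the 8 troponin genes were higher and 3 were lower (limma). Of all 16382 genes, 2184 were higher and 1995 were lower by that looser rule. The KO and WT values did not overlap for 5 of the 8 troponin genes, and for 17.2% of all genes. KO was above WT without overlap for 2 of the 8, where 8.63% of all genes were, and below for 3 of the 8, where 8.54% were. The median log2 fold change was 0.17 over the 8 troponin genes and -0.01 over all genes.

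Normalized counts here are estimated reads per gene divided by a factor that evens out depth and transcript length between libraries. They summed to between 32300000 and 33100000 per KO library and between 33600000 and 35700000 per WT library. The depth recovered from the steps between low values was approximate. It was 36800000 to 41600000 reads in the WT libraries, 37800000 in KO replicate 1 and 26000000 to 26400000 in KO replicates 2 to 4, so depth and genotype were partly confounded. Megf10 itself stood between 1.12 and 11.1 normalized counts in KO and between 57.1 and 70.0 in WT, and no library went against its label. KO replicates 2 and 3 stood apart in Myh4, the myosin heavy chain of type IIb fibers, which the soleus normally has few of: it read 930, 18638, 43384 and 460 in the KO libraries, in replicate order, and 746, 911, 818 and 3625 in the WT libraries. Of 8 macrophage markers 6 were higher in KO, with a summed level of 6249 to 7890 in KO and 3043 to 4326 in WT, and of 5 fat cell markers 4 were higher, with a summed level of 9257 to 14040 in KO and 7615 to 9502 in WT. Of 5 Schwann cell markers 0 were called (none higher and 2 lower at an unadjusted p under 0.05), and 0 of 4 smooth muscle markers and 0 of 5 red blood cell genes were called, also at an unadjusted p under 0.05 (limma). The red blood cell genes were uneven between libraries, with a summed level of 4978 to 59920 in KO and 10430 to 27360 in WT. Of 7 general skeletal muscle genes 2, Ckm and Ttn, were lower, calls that did not hold: 0 of the 7 were lower in 7 of the 8 fits that left out 1 library, 1 was lower without WT replicate 1, and 0 were called without KO replicates 2 and 3, with 1 higher and 3 lower at an unadjusted p under 0.05 (limma). Acta1, the main skeletal actin, averaged 894192 in KO and 942206 in WT. None of the macrophage and fat cell markers was at 0, and the part of such cells in the troponin values was not tested. In RNA from whole muscle, fewer cells of a type cannot be told apart from less RNA per cell.

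The sequences just upstream of the start sites are shown for the genes that moved, or came closest to moving, and for which RefSeq had an entry, together with Tnnt2 as the gene used by heart and embryonic muscle. Each run holds the 250 bases before the annotated start in RefSeq for GRCm38.p6, written 5′ to 3′ on the strand of the gene. For Tnni1 and Tnnt2 the first of 2 annotated start sites was taken. Capitals mark matches to the E-box (CANNTG), the site bound by MyoD and related factors, and to the MCAT element (CATTCC, or GGAATG when read from the other strand), the site bound by TEAD factors.
Tnnc1 promoter, chr14:31208062-31208311, plus strand: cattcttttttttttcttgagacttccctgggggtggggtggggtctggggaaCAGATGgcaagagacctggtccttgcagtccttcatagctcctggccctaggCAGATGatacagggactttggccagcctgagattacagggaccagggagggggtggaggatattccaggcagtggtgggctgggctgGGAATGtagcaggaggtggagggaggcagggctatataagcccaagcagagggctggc
Tnnc2 promoter, chr2:164779735-164779984, minus strand: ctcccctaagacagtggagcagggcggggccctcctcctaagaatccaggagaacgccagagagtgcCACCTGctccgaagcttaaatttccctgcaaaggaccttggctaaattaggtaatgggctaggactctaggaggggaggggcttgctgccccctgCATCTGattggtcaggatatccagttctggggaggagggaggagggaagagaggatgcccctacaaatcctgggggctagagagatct
Tnni1 promoter, chr1:135799171-135799420, plus strand: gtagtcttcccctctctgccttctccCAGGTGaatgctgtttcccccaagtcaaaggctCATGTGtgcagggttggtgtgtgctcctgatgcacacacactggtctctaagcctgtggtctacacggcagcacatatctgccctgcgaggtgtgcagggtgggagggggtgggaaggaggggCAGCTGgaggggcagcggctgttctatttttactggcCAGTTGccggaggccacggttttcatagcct
Tnnt2 promoter, chr1:135836084-135836333, plus strand: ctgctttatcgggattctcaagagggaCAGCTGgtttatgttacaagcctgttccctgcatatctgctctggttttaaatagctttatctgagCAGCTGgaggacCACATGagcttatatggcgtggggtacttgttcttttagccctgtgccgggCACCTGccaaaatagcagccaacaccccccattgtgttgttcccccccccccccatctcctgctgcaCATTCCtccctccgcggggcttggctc

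The slow and cardiac gene Tnnc1 held 2 E-boxes, starting 197 and 145 bases before the start, and 1 MCAT element 58 bases before it. The fast gene Tnnc2 held 2 E-boxes, at 183 and 88 bases, and no MCAT element. At the first start site Tnni1 held 4 E-boxes and Tnnt2 held 4 E-boxes with 1 MCAT element, 27 bases before the start. At the second start site, not shown, Tnni1 held 2 E-boxes and Tnnt2 held 1, and neither held an MCAT element. Over 32851 promoter windows of the same length, searched on both strands, 66.2% held an E-box and 12.6% an MCAT element, so an E-box in such a window is common. Matches to the MEF2 and the CArG consensus, present in 2.92% and 1.47% of all windows, were found in none of the windows of the 6 troponin genes that had an entry. The sequence TATAAA, present in 12.4% of all windows, was found for 1 of the 6, Tnnt1, where it starts 30 bases before the start site. These matches describe letters and not bound sites.

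Among the fast genes, Tnnt3, the fast tropomyosin-binding subunit, had the largest fold difference of the 8. Its normalized count was 144686, 140251, 136010 and 131195 in the KO mice, in replicate order, and 213196, 202931, 242163 and 226507 in the WT mice. Every KO value lay below every WT value, and the nearest pair, KO replicate 1 and WT replicate 2, were still far apart. The group means were 138035 ± 5774 in KO and 221199 ± 16984 in WT (SD, n = 4 each). The log2 fold change was -0.68 (SE 0.071, adjusted p = 9.01e-04, limma). Tnnt3 remained past the threshold when KO replicates 2 and 3 were left out (adjusted p = 0.0274, limma).

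Tnni2, the fast inhibitory subunit, followed Tnnt3 closely. It measured 62093, 62858, 57735 and 59892 in KO and 88334, 84389, 106112 and 95704 in WT. The 2 genotypes did not overlap, and WT replicate 3 was again the highest library. In log2 units the fold change was -0.62 (SE 0.076, adjusted p = 0.00172, limma), between means of 60644 ± 2311 and 93635 ± 9549 (SD, n = 4 each). Without KO replicates 2 and 3 the adjusted p was 0.0394 (limma).

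Tnnc2, the fast calcium-binding subunit, fell less. Its values were 88443, 94387, 87878 and 85278 in KO and 114218, 108274, 138087 and 127639 in WT. The highest KO library, replicate 2, stayed below the lowest WT library, also replicate 2. The log2 fold change was -0.45 (SE 0.081, adjusted p = 0.00811, limma), between means of 88997 ± 3849 and 122055 ± 13411 (SD, n = 4 each). With KO replicates 2 and 3 left out the fold change was of the same direction and Tnnc2 no longer passed (adjusted p = 0.0749, limma).

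Among the slow genes, Tnni1, the slow inhibitory subunit, was the one called. It measured 88303, 85570, 85697 and 84455 in KO and 56663, 79030, 70086 and 61814 in WT. The KO libraries lay in a narrow band above the WT libraries, which were spread out, with WT replicate 2 closest to the KO values. The means were 86006 ± 1630 and 66898 ± 9797 (SD, n = 4 each) and the log2 fold change was 0.37 (SE 0.093, adjusted p = 0.0335, limma). This call was fragile. Leaving out any single library other than WT replicate 2 ended it, with adjusted p from 0.00857, without WT replicate 2, to 0.0892 over the 8 limma fits.

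Tnnc1, the slow and cardiac calcium-binding subunit, measured 103072, 104603, 112897 and 100632 in KO and 75721, 99702, 91216 and 81325 in WT. All 4 KO libraries were above all 4 WT libraries, though KO replicate 4 and WT replicate 2 were nearly level. The log2 fold change of 0.28 (SE 0.087, 95% interval 0.09 to 0.47) did not pass the test (adjusted p = 0.0699, limma). It did pass in the fit without WT replicate 2 (adjusted p = 0.0266, limma) and also when libraries were scaled by their totals alone (adjusted p = 0.0194, limma).

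Tnnt1, the slow tropomyosin-binding subunit, measured 141384, 148704, 148414 and 140050 in KO and 124435, 154961, 148689 and 129171 in WT. The KO libraries lay inside the WT range. The log2 fold change was 0.06 (SE 0.079, adjusted p = 0.687, limma), with a 95% interval from -0.12 to 0.23, so a rise as large as the mean change of Tnni1 lay outside that interval. The slow troponin T gene and the slow troponin I gene differed in whether they passed, and the difference between them was not itself tested.

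**Figure D1:**
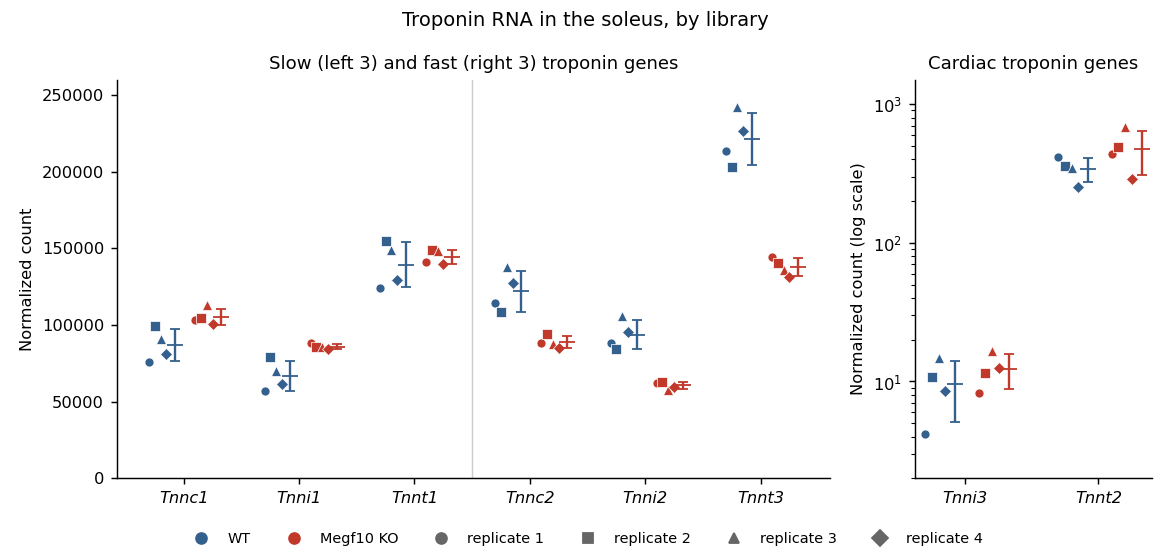
Normalized counts of the 8 troponin genes in each library, WT in blue and Megf10 KO in red, with marker shape for the replicate and bars for the mean ± SD (n = 4). The left panel has a linear axis and the right panel, for the 2 cardiac genes, a log axis. For Tnnc2, Tnni2 and Tnnt3 every KO point is below every WT point, for Tnnc1 and Tnni1 every KO point is above, and for the other 3 genes the points overlap.

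Replicate spread of the skeletal troponin genes differed between the genotypes in these libraries. Over the 6 skeletal troponin genes the coefficient of variation was 1.90% to 5.05% in KO and 7.68% to 14.6% in WT, and it was smaller in KO for 6 of 6. WT replicate 2 had the highest Tnnc1, Tnni1 and Tnnt1 and the lowest Tnnc2, Tnni2 and Tnnt3 of the WT libraries. It also had the highest WT value of Myh7, the slow myosin heavy chain, at 675603 against 523820 to 567492 in the other WT libraries. Other genes did not share 1 direction of spread. The coefficient of variation was larger in KO for Tnnt2 (34.8% in KO, 19.7% in WT), Myh2 (13.6% and 7.43%) and Acta1 (8.36% and 4.24%). It was smaller in KO for Tnni3 (28.0% and 46.5%) and Myh7 (2.21% and 12.3%). The difference in spread was not tested.

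A ratio of a slow gene to its fast counterpart within one library does not depend on a scaling factor shared by the whole library, although the correction for transcript length stays in it. The log2 ratio of Tnni1 to Tnni2 was 0.51, 0.45, 0.57 and 0.50 in KO and -0.64, -0.09, -0.60 and -0.63 in WT. Slow troponin I reads thus outnumbered fast ones in all 4 KO libraries and in none of the WT libraries, and the mean difference of 1.00 on the log2 scale is a 1.99-fold change of the ratio. The log2 ratio of Tnnc1 to Tnnc2 was 0.22, 0.15, 0.36 and 0.24 in KO and -0.59, -0.12, -0.60 and -0.65 in WT, a 1.66-fold change. For Tnnt1 to Tnnt3 it was -0.03, 0.08, 0.13 and 0.09 in KO and -0.78, -0.39, -0.70 and -0.81 in WT, a 1.67-fold change. For each subunit the 4 KO ratios were above the 4 WT ratios, and WT replicate 2 was the WT library nearest to KO. The ratios carry no p-value because the genes were chosen with results known. Without KO replicates 2 and 3 or with any one library left out, the mean difference ranged from 0.68 to 0.86 for troponin C, from 0.95 to 1.13 for troponin I and from 0.69 to 0.83 for troponin T.

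The motor protein of the thick filament gave a similar picture of values. The log2 ratio of Myh7 to Myh2, the myosin heavy chain of type IIa fibers, was 1.24, 1.64, 1.60 and 1.25 in KO and 0.07, 0.53, 0.45 and 0.19 in WT. All KO libraries were above all WT libraries, by 1.12 on the log2 scale on average.

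**Figure D2:**
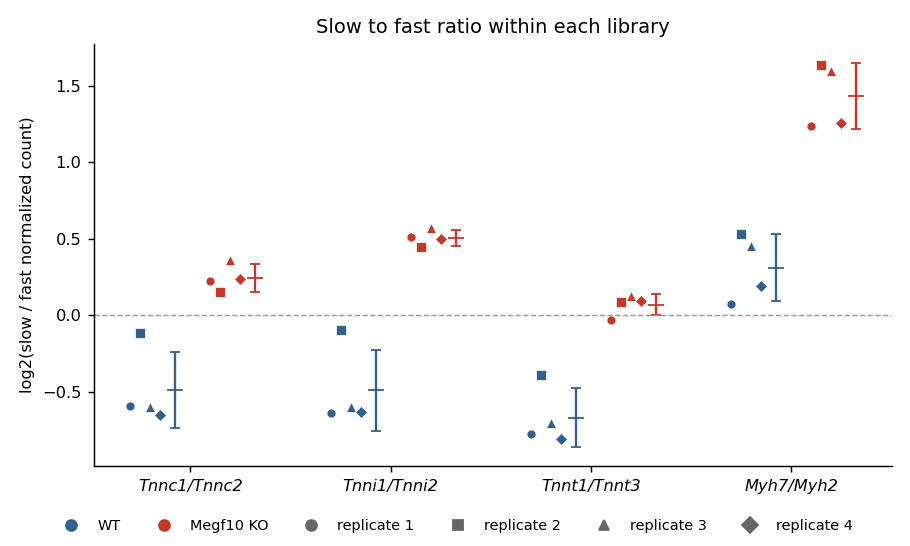
Log2 ratio of the slow to the fast normalized count within each library for troponin C, troponin I, troponin T and the myosin heavy chains of type I and type IIa fibers. Points are libraries (blue WT, red KO, shape for the replicate), bars are mean ± SD (n = 4) and the dashed line marks equal counts. All 4 KO points are above all 4 WT points for each pair, and WT replicate 2 is the highest WT point in each.

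Levels of different genes were compared per base of coding length, in normalized counts per base. In WT the order of mean levels was Tnnt3 (289 ± 22.2), Tnnc2 (254 ± 27.9), Tnnc1 (180.1 ± 22.0), Tnnt1 (178 ± 18.9), Tnni2 (172 ± 17.5) and Tnni1 (119 ± 17.5), each with its SD over 4 libraries. The ranges of Tnnc1, Tnnt1 and Tnni2 overlapped, as did those of Tnnt3 and Tnnc2, while every WT library had Tnni1 below the range of the others. In KO the order was Tnnc1 (218 ± 11.02), Tnnc2 (185 ± 8.02), Tnnt1 (185 ± 5.83), Tnnt3 (180.4 ± 7.55), Tnni1 (153 ± 2.91) and Tnni2 (111 ± 4.23). The 3 genes in the middle of that order, Tnnc2, Tnnt1 and Tnnt3, had overlapping ranges, while Tnnc1 lay above them and Tnni1 and Tnni2 below. On this scale Tnnt3 went from the highest troponin level in WT to a level like that of Tnnt1 in KO, and Tnni2 from above Tnni1 to below it. The order across genes rests on the length chosen. Transcript length was 0.721 kb against a coding length of 0.483 kb for Tnnc1, and 1.038 against 0.561 kb for Tnni1. By transcript length Tnni1 and Tnni2 were nearly level in KO, at 50.6% and 49.4% of troponin I RNA. Tnnt1 and Tnnt3 then took 53.1% and 46.7% of troponin T RNA.

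As a share of the RNA of its subunit, per base of coding length, slow Tnni1 made up 58.0% ± 0.865 of troponin I in KO and 41.0% ± 4.49 in WT (SD, n = 4 each). Tnnc1 made up 54.0% ± 1.52 of troponin C in KO and 41.5% ± 4.23 in WT. Tnnt1 made up 50.5% ± 1.197 of troponin T in KO and 38.0% ± 3.18 in WT. The slow share of every subunit was thus above 50% on average in KO and below it in WT. Not every KO library was above 50%, as Tnnt1 stood at 48.8% in KO replicate 1. By transcript length the KO share of Tnni1 was 50.6% on average and 49.6% in KO replicate 2. With either length the KO shares of the 3 slow genes lay above the WT shares without overlap. Myh7 took 63.2% of the RNA of the 4 adult myosin heavy chain genes in KO and 49.0% in WT, and Myh2 took 23.6% and 39.5%.

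The totals of the subunits did not change alike. Summed over its genes, per base of coding length, troponin T stood at 370, 374, 368 and 351 in KO and at 438, 464, 507 and 461 in WT. No KO library reached the lowest WT library, and the mean was 21.8% lower. The totals of troponin C (403 ± 14.3 in KO, 434 ± 33.4 in WT) and troponin I (264 ± 5.996 in KO, 291 ± 23.4 in WT) overlapped between the genotypes. Within a library, troponin T to troponin I stood at 1.37, 1.40, 1.42 and 1.35 in KO and at 1.67, 1.57, 1.59 and 1.62 in WT, without overlap. Troponin T to troponin C was 0.883 to 0.931 in KO and 1.06 to 1.11 in WT, also without overlap, while troponin C to troponin I was 1.47 to 1.61 in KO and 1.46 to 1.52 in WT. The same pairs overlapped and did not overlap when normalized counts were used without division by length. Tnnt3 carries the most annotated transcripts of the 8 genes, 27 of them with 23 coding, so a single coding length describes it less well than Tnnc1 or Tnnc2, which have 1 coding transcript each. All troponin genes together took 1.93%, 1.96%, 1.90% and 1.87% of the normalized counts in KO and 2.00%, 2.15%, 2.23% and 2.10% in WT.

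**Figure D3:**
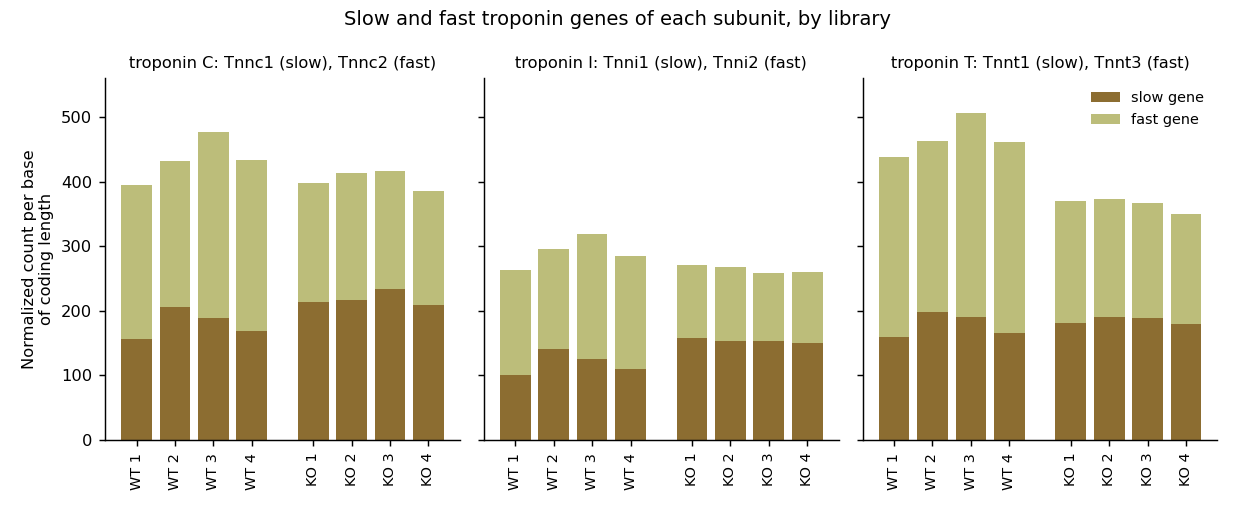
Stacked bars of the slow gene (dark) and the fast gene (light) of each troponin subunit in each library, in normalized counts per base of coding length, with axes from 0. The cardiac genes are too low to show and are left out. Total troponin T is 351 to 374 in the KO libraries and 438 to 507 in the WT libraries, and the bars of the other 2 subunits overlap in height.

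The 2 cardiac genes were far below the skeletal ones. Tnnt2 measured 436, 489, 687 and 288 in KO and 413, 359, 344 and 251 in WT. The groups overlapped, with KO replicate 3 highest and WT replicate 4 lowest. The log2 fold change was 0.43 (SE 0.24, adjusted p = 0.299, limma), with a 95% interval from -0.10 to 0.96, and it was 0.07 when KO replicates 2 and 3 were left out. Tnnt2 made up 0.145% of troponin T RNA per base in KO and 0.0823% in WT.

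Tnni3 measured 8.26, 11.5, 16.6 and 12.5 in KO and 4.17, 10.7, 14.9 and 8.59 in WT. These values are near the low end of what the libraries resolve, and they overlapped. The log2 fold change was 0.40 (SE 0.43, adjusted p = 0.613, limma). Its 95% interval of -0.55 to 1.35 is wide and includes 0, so no change was detected, and a change of either sign within it remains possible. Of 7 other cardiac muscle genes with values 1 was higher and none was lower (none also at an unadjusted p under 0.05), and this was Sln, which passed the test (log2 fold change 1.60, SE 0.19, adjusted p = 0.00148, limma). Sln encodes sarcolipin, an inhibitor of the calcium pump, which slow muscle also makes. Myh6, a cardiac myosin heavy chain, stood at 950.4 ± 226 in KO and 849 ± 63.3 in WT (SD, n = 4 each) and did not pass. Nppb, Myl7, Nkx2-5 and Mybpc3 were not analysed here.

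Myh4, a fast myosin gene, did not follow the fast troponins. In KO replicates 2 and 3, where Myh4 was highest, Tnnt3 stood at 140251 and 136010, between or next to the 144686 and 131195 of the KO libraries with little Myh4. Pvalb, a calcium buffer of the fastest fibers, measured 4510, 11003, 12336 and 1867 in KO and 1705, 3841, 6535 and 5467 in WT. Actn3, the fast Z-disc actinin, measured 7177, 10389, 19518 and 2589 in KO and 1858, 3764, 6871 and 6444 in WT. Both genes, which were picked after their values were seen, were highest in KO replicates 2 and 3 and overlapped between the genotypes, unlike any fast troponin. Myh1, the type IIx myosin heavy chain, measured 93529, 186269, 108946 and 114666 in KO and 80327, 108435, 194205 and 148306 in WT. It also overlapped, but it was not high in KO replicate 3.

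The genes of the fast program that fell with the troponins were others. Of 12 other fast fiber genes 3 were lower, none was higher (also none at an unadjusted p under 0.05), and the median log2 fold change was -0.004. Myh2 fell by 0.89 in log2 units (SE 0.10, with an adjusted p = 0.00144, limma). The fast fiber calcium pump gene Atp2a1 fell by 0.72 (SE 0.063, adjusted p = 5.82e-04), and Myoz1, a Z-disc protein of fast fibers, fell by 0.59 (SE 0.13, adjusted p = 0.0168, limma). Mylpf and Myl1, the fast myosin light chains, stood at log2 fold changes of -0.05 and 0.04 and did not pass.

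Of 11 other slow fiber genes 2 were higher and 1 was lower, with a median log2 fold change of 0.15. At an unadjusted p under 0.05, 4 were higher and 4 were lower (limma), so the list did not move in 1 direction. Phospholamban, encoded by Pln, restrains the calcium pump in slow fibers, and its RNA rose by 0.79 (SE 0.12, adjusted p = 0.00415, limma). Casq2, the calcium store protein of slow and cardiac muscle, rose by 0.43 (SE 0.087, adjusted p = 0.0130, limma). Myl3, a slow myosin light chain, went the other way and fell by 0.30 (SE 0.067, adjusted p = 0.0217, limma), a call lost without KO replicate 1, KO replicate 3 or WT replicate 4, at an adjusted p of up to 0.0764. Myh7 stood at a log2 fold change of 0.23 and did not pass (SE 0.091, adjusted p = 0.134, limma).

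On the thin filament itself, 1 of 15 other genes was higher and 3 were lower, with a median log2 fold change of -0.07. At an unadjusted p under 0.05, 3 were higher and 5 were lower (limma). Tmod4, which caps the pointed ends of thin filaments in skeletal muscle, fell by 0.62 (SE 0.066, adjusted p = 9.22e-04, limma), a change near that of Tnni2. Tpm1, a tropomyosin on which troponin T sits, fell by 0.36 (SE 0.079, adjusted p = 0.0185), and Tpm2, another tropomyosin, by 0.26 (SE 0.072, adjusted p = 0.0482, limma). The Tpm2 call was lost in each of the 8 fits that left out 1 library. Actc1, the cardiac and embryonic actin, rose by 1.00 (SE 0.24, adjusted p = 0.0295, limma), a call that 6 of the 8 such fits did not keep (all but those without KO replicate 2 and without WT replicate 2). Tpm1 was not called without KO replicate 3 or without WT replicate 4, at an adjusted p of up to 0.0544 (limma). Acta1, the main skeletal actin, stood at a log2 fold change of -0.08 and did not pass.

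Of 10 other genes of embryonic and perinatal muscle 6 were higher and none was lower (none also at an unadjusted p under 0.05), with a median log2 fold change of 1.29. Myh3, the embryonic myosin heavy chain, measured 8845, 7594, 9886 and 5877 in KO and 1342, 2259, 1450 and 1883 in WT. Its groups were well apart, and the rise was 2.22 in log2 units (SE 0.19, adjusted p = 4.34e-04, limma). Tnnt2, which embryonic muscle also uses, had overlapping groups, and both genes were highest in KO replicate 3 and, among the KO libraries, lowest in KO replicate 4. Myl4, the embryonic and atrial light chain, rose by 2.40 (SE 0.20, adjusted p = 4.34e-04, limma). Mymk and Mymx, the muscle fusion proteins, were at a few counts or fewer in WT and also passed, with adjusted p of 0.0170 and 0.0279 (limma). The count of 6 fell to as few as 2 when 1 library was left out: it was 2 without KO replicate 3 and 3 without KO replicate 1, WT replicate 3 or WT replicate 4. Myh3 and Myl4 were called in all 8 of these fits. Mymk and Mymx were not called without KO replicate 3, and the Mymx call was lost in 5 of the 8 fits that left out 1 library (KO replicates 1 and 3 and WT replicates 1, 3 and 4).

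With KO replicates 2 and 3 left out, fewer of these genes were called by limma: 2 of the 10 embryonic and perinatal genes, all higher, 2 of the 12 fast genes, all lower, and 1 of the 15 thin filament genes, Tmod4, lower. Of the 11 slow genes 0 were then called, with 2 higher and 2 lower at an unadjusted p under 0.05. Of the markers of other cells, 1 of 8 for macrophages and 0 of 5 for fat cells were then called, with 8 and 4 higher at an unadjusted p under 0.05. Of all 16382 genes, 1537 were higher and 1387 were lower at that unadjusted p in the same fit (limma).

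**Figure D4:**
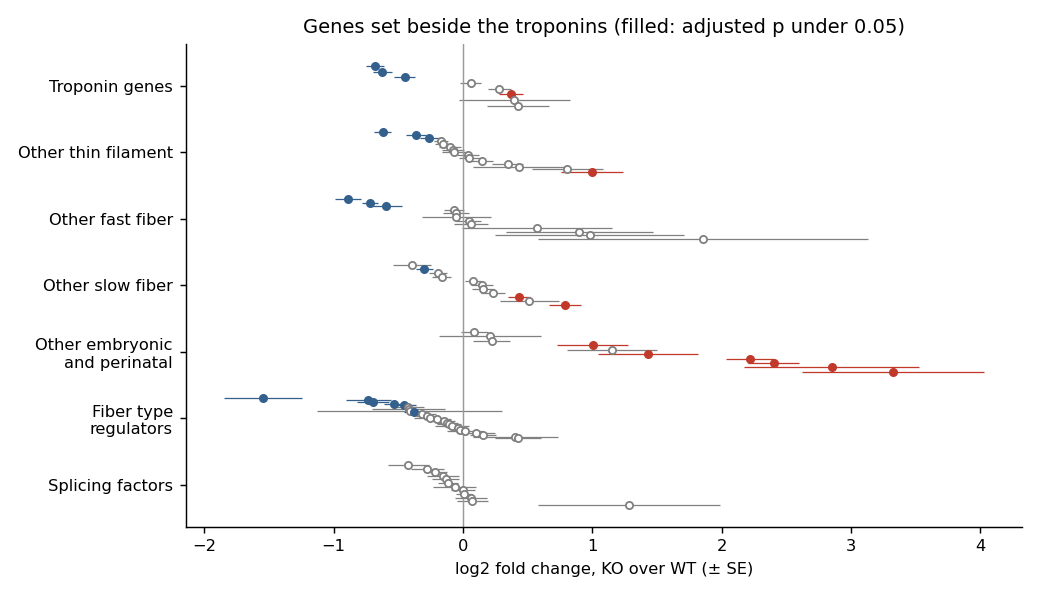
Log2 fold change (KO over WT, ± SE) of each gene of 7 lists. Filled points passed an adjusted p of 0.05 (red higher in KO, blue lower), and open grey points did not. The 3 fast troponin genes lie left of 0 with small errors, as do Myh2, Atp2a1 and Myoz1 among the other fast genes, and the 6 filled points of the embryonic list lie to the right.

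Among 24 regulators of fiber type none was higher (1 at an unadjusted p under 0.05), 6 were lower, and the median log2 fold change was -0.23. Sox6, which in the mouse represses slow fiber genes in fast fibers, fell by 0.53 (SE 0.077, adjusted p = 0.00338, limma). Six4, a homeodomain factor of the fast program in the mouse, fell by 0.70 (SE 0.12, adjusted p = 0.00770, limma). Hdac5, a deacetylase that holds MEF2 factors in check, fell by 0.38 (SE 0.074, adjusted p = 0.0118), and Myod1, the myogenic factor, fell by 1.55 (SE 0.30, adjusted p = 0.0118, limma). Ppargc1b, a transcriptional coactivator, was also called, and that call was lost in 5 of the 8 fits that left out 1 library (KO replicates 2, 3 and 4 and WT replicates 1 and 4). With KO replicates 2 and 3 left out, 0 of the 24 were called and 8 were lower at an unadjusted p under 0.05 (limma). Of 12 splicing factors that act on troponin T transcripts, 0 were called, and the smallest adjusted p was 0.122 (limma). At an unadjusted p under 0.05 none of the 12 was higher and 2 were lower. Of all 16382 genes, 1995 were lower at that unadjusted p. The values are sums over all transcripts of a gene, so exon choice in Tnnt3 or Tnnt1 was not measured.

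Of 13 genes for proteins that phosphorylate or degrade troponins and other sarcomere proteins, 1 was higher and 1 was lower. Over all genes 5.16% were higher and 3.79% were lower, and counts this small do not set the list apart. Prkcq, a protein kinase C abundant in skeletal muscle, fell by 0.49 (SE 0.086, adjusted p = 0.00694, limma), and Capn2, a calcium-activated protease, rose by 0.32 (SE 0.068, adjusted p = 0.0173, limma), a call lost without KO replicate 3 (adjusted p = 0.0605, limma). Without KO replicates 2 and 3 together neither passed, with adjusted p of 0.0917 for Prkcq and 0.0805 for Capn2 (limma), and 0 of the 13 were called, with 1 higher and 2 lower at an unadjusted p under 0.05.

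Several troponin genes are neighbours on the chromosome. In the mouse annotation Tnni2, Lsp1 and Tnnt3 follow each other on chromosome 7, Tnni1, Lad1 and Tnnt2 on chromosome 1, and Tnnt1 and Tnni3 lie side by side elsewhere on chromosome 7. Tnni2 and Tnnt3 both fell, but Lsp1 between them, a leukocyte and endothelial actin-binding protein, stood at a log2 fold change of 0.33 and did not pass (SE 0.11, adjusted p = 0.0974, limma). Tnni1 and Tnnt2 had Lad1 between them, which stood at -0.46 with a wide error (SE 0.50, adjusted p = 0.610, limma). The pair Tnnt1 and Tnni3 had no called member. Adjacent troponin genes thus included a pair that fell together, a pair with 1 called gene and a pair with none.

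Some troponin genes overlap other genes, and whether reads were assigned by strand is not given in the sources used here, so reads in the shared stretches cannot be told apart. Prr33, on the opposite strand over part of Tnnt3, measured 1562, 1944, 1828 and 1759 in KO and 2700.5, 2302, 2853 and 3002 in WT. It fell by 0.61 in log2 units (SE 0.096, with an adjusted p = 0.00467, limma), close to the change of Tnnt3, at a level far below it. Nisch, opposite Tnnc1, and Ube2c, opposite Tnnc2, stood at log2 fold changes of -0.05 and -0.003, and neither passed. Dnaaf3, a dynein assembly factor, overlaps Tnni3 on the same strand, where strand could not separate the reads. It measured 12.1, 2.50, 12.5 and 7.37 in KO and 20.1, 7.35, 9.58 and 14.9 in WT, the same low level as Tnni3, so the Tnni3 values are uncertain. The genotypes overlapped for Dnaaf3, at -0.63 in log2 units (SE 0.52, adjusted p = 0.491, limma).

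The genes whose profiles over the 8 libraries were most like those of the called troponins were found by the root-mean-square difference of centered log2 values, among 10801 genes with a mean normalized count of at least 100. Tnni2 and Tnnt3 were each the nearest gene to the other, with a difference of 0.0473, where the profile of Tnni2 itself had a root-mean-square size of 0.325 and that of Tnnt3 0.348. Next to both came Slc26a6, an anion exchanger, at 0.0612 and 0.0614, followed by Hnrnpl for Tnni2 (0.0700) and Atp2a1 for Tnnt3 (0.0634). Nearest to Tnnc2 were Zfyve27 (0.0417), Gcdh (0.0494) and Bcat2 (0.0520), a mitochondrial enzyme of branched-chain amino acid breakdown. Nearest to Tnni1, whose profile had a root-mean-square size of 0.227, were Lhpp (0.0663), Fbxl4 (0.0672) and Tnnc1 (0.0688). Profiles were centered over both genotypes together, so they hold the genotype difference by which the called troponins were picked. A small difference thus does not show that 2 genes vary together within a genotype.

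**Figure D5:**
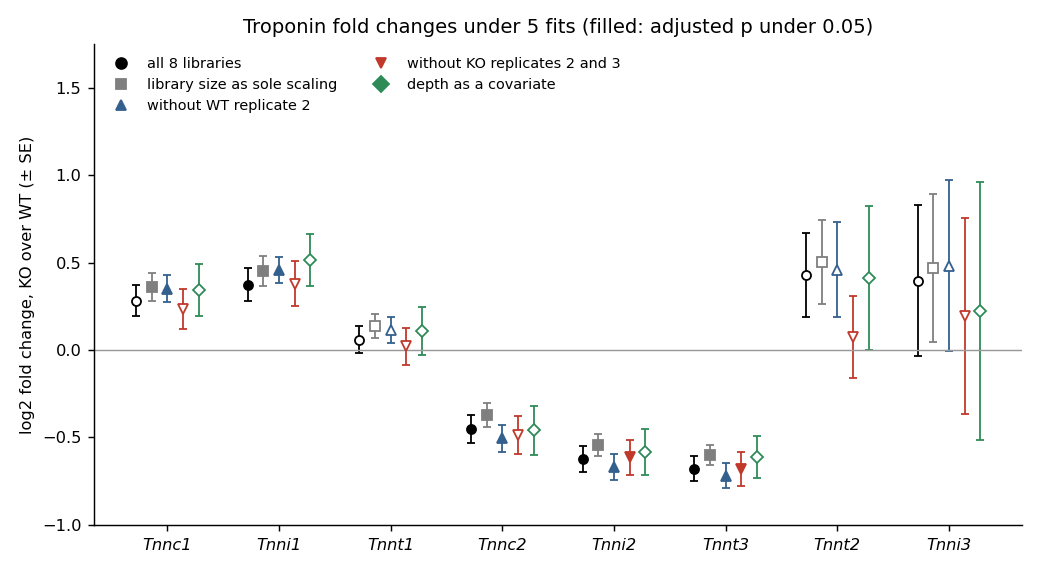
Log2 fold change (KO over WT, ± SE) of the 8 troponin genes in the fit of all 8 libraries and in 4 alternatives, filled where the adjusted p was under 0.05. The direction of every gene is the same in all 5 fits, the fast genes keep a log2 fold change between -0.37 and -0.72, the calls of Tnnc2 and Tnni1 are lost without KO replicates 2 and 3, and no point is filled with depth as a covariate.

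When the recovered depth of each library was added to the limma fit, 0 of the 8 troponin genes passed, and the smallest adjusted p was 0.0752. At an unadjusted p under 0.05, 2 were higher and 3 were lower. Of all 16382 genes, 1087 were higher and 1048 were lower by that looser rule. The log2 fold changes of Tnnt3, Tnni2 and Tnnc2 were -0.61, -0.58 and -0.46 in that fit. KO replicate 1, at a depth within the WT range, had a Tnnt3 of 144686, a Tnni2 of 62093 and a Tnnc2 of 88443. Log2 depth was lower in KO and correlated with genotype at -0.79, so the 2 cannot be told apart here, and 1 library does not separate them. Scaling by library totals alone called 1279 genes higher and 321 lower, against 845 and 621, and the same 3 fast troponin genes were lower.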

How the data were processed

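RNA-seq libraries from the soleus of 4 Megf10 KO and 4 WT mice were used. Per the labels and the study's methods, the authors used Trimmomatic for trimming, FastQC and MultiQC for read quality, Salmon with build GRCm39 for quantification and tximport for gene sums, dropped counts of 5 or less and applied the DESeq2 normalization. The values the authors deposited are the resulting normalized gene counts, a signal per gene and library that is no longer a raw count. A second table the authors deposited pairs a mean per gene (also a signal) with their own fold changes and p-values. Its mean was used to check the libraries (largest relative difference 6.73e-15), and its other columns were not used.

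Whole reads were recovered for 17.7% to 37.4% of values up to 60 (tolerance 0.01 reads), so no count test was run. Values were tested with limma 3.58.1 in R 4.3.3 on log2(normalized count + 1), a scale that understates the change of low genes. The fit had a trended prior, genotype as its sole term and Benjamini-Hochberg adjustment over 16382 genes, with a threshold of 0.05. Rows summing to 5 or less over the libraries were to be dropped, and none was (smallest sum 19.22). A row with no gene name, 0.0112% to 0.0150% of each library, was left out. The fit was tested on simulated data. Python 3.11.15 was used for descriptions. The number of mice limits the precision. The p-values weigh the genotype difference against the spread between mice, with a variance drawn in part from other genes.

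Coding lengths, transcript numbers and gene order came from a GENCODE annotation of GRCm38 and promoter windows from RefSeq for GRCm38.p6, not the build of the values. Of 8 troponin genes 6 had a promoter entry. Coordinates are those of GRCm38.p6. Genes named are all 8 troponins, 5 myosin heavy chains, up to 4 genes per list by adjusted p, the 3 genes most like each called troponin, and neighbours. Some further genes (Pvalb, Actn3, Mylpf, Myl1, Acta1, Myh6, Ppargc1b, Ckm and Ttn) were named after their values were seen. One gene counted in a list is not reported here by name. The troponin genes and the lists were chosen with earlier results of these data known. Replicate numbers did not pair the libraries. Alternatives covered scaling, pseudocount, filter, prior, threshold, replicate block and libraries left out. Depth as a covariate, WT replicate 2 left out with KO replicates 2 and 3, and transcript length were added after seeing the data.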

Additional observations from a re-analysis of the deposited data

Results flagged for a closer look

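Of 22 groups of 4 values tested for a library far from the others, 2 held one, where chance alone gives about 1 in 20. Both were WT replicate 2. Its log2 ratio of Tnnc1 to Tnnc2 was -0.119, against -0.59, -0.60 and -0.65 in WT replicates 1, 3 and 4, a gap of 0.892 of the whole range of the group. Its log2 ratio of Tnni1 to Tnni2 was -0.0947, against -0.64, -0.60 and -0.63, a gap of 0.923 of the range. In both ratios this library lay nearest to the KO libraries and still below all of them. The 2 ratios come from the same library and are not separate evidence.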

How the results depend on the processing

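Of the 8 troponin genes 4 were called, 3 to 5 when 1 library was left out, 2 without KO replicates 2 and 3, 2 without these and WT replicate 2, and 0 with depth as a covariate. The 3 fast genes were lower in each of the 8 fits that left out 1 library. No fold change of a troponin gene turned direction in any of 21 alternatives. Of all genes 1466 were called, 662 (without KO replicate 3) to 1231 when 1 library was left out (907 without WT replicate 3 and 959 without WT replicate 4), 819 with a prior without trend, 58 with depth as a covariate, 164 without KO replicates 2 and 3, 80 without these and WT replicate 2, and 440 at an adjusted p under 0.01. Over the lists together 37 genes were called, 22 (without KO replicate 3) to 34 when 1 library was left out, 21 without trend, 3 with depth, 7 without KO replicates 2 and 3, 6 without these and WT replicate 2, and 15 at 0.01. The cause of these moves was not tested, and some of the fits also had fewer libraries.

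Same-numbered KO and WT libraries did not deviate together (correlations of -0.029, -0.067, -0.036 and -0.038), and none of the 4 KO libraries correlated best with its own number, so the numbers do not pair them. With the replicate block 1278 genes were called, and the same 4 troponin genes were among them, with adjusted p of 0.00554 for Tnnt3, 0.00792 for Tnni2, 0.0221 for Tnnc2 and 0.0440 for Tnni1 (limma). Depth limits Tnni3, at 4.17 to 16.6 normalized counts.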
